A study of Mus musculus with 24 samples.

Results

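N6-methyladenosine (m6A) enrichment of transcripts was compared between hippocampi of 5xFAD mice given vehicle and of untreated wild-type mice. The comparison used 16 of the 24 libraries of the series, 1 input and 1 m6A immunoprecipitated (IP) library from each of 4 animals per group, chosen by genotype and treatment. The measurement was the ratio of IP to input within each animal, for every gene with enough counts, 18300 of 55291 rows. 5xFAD mice (labelled AD) carry mutant human transgenes, APP among them, as found in inherited Alzheimer's disease, driven by the neuronal Thy1 promoter, so the transgene RNA is made in neurons. The remaining group of the series, 5xFAD mice given MS1262, a brain-penetrant G9a inhibitor by the series title, enters only by sharing the estimate of spread and as values set beside the others. Wild-type animals were age matched and had no treatment, so that genotype and vehicle dosing cannot be told apart. The age, the vehicle and its schedule are not given in the sources used here.

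m6A is placed on mRNA in the nucleus by a methyltransferase complex built around Mettl3 and Mettl14, and can be removed by the demethylases Fto and Alkbh5. YTH domain proteins and other readers bind it and affect splicing, export, translation and decay of the transcript. In neurons it has been studied for its part in synaptic mRNA transport and memory. An antibody against m6A pulls down RNA that carries it, so a gene's IP over input ratio is a relative measure of how strongly its RNA was captured. The libraries were scaled to each other, so a change shared by all transcripts would not be seen.

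In megacounts (M), input libraries held 20.7 to 41.4 M in vehicle and 23.3 to 43.2 M in wild-type animals, and IP libraries 3.98 to 43.8 M in vehicle and 10.6 to 48.6 M in wild-type animals. The smallest was the IP of vehicle animal 4. The hippocampal markers Prox1 (dentate granule cells), Wfs1 (CA1) and Slc17a7 (excitatory neurons) were present in each of the 8 inputs, at 27.5 to 88.6, 37.4 to 57.7 and 43.4 to 63.2 CPM (counts scaled to library size). Vehicle animal 3 stood apart. Its input held 7032 CPM of Ttr, the transthyretin transcript of choroid plexus, against 57.1 to 68.2 in the other vehicle inputs, while wild-type inputs held 31.7 to 60.2 and, in animal 3, 730.3. Its Xist level was 1.30 CPM, against 23.4 to 47.1 in the other vehicle inputs and 25.7 to 34.1 in wild-type inputs. The labels used here give no sex. Results are therefore also given without it.

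Far more transcripts were captured better in vehicle than in wild-type animals than the reverse. With an adjusted p below 0.05 as the threshold for a call (edgeR quasi-likelihood F test, animal as block, Benjamini-Hochberg over 18300 genes), 181 genes changed, which is 0.989% of those tested. The ratio rose in 176 (0.962%) and fell in 5 (0.0273%). Of the 176, 70 rose at least 2-fold, and the median log2 change was 0.94 (range 0.52 to 1.79), against a median of -0.06 over all tested genes. The animals' ratios did not overlap between groups for 174 of the 176 and for 4 of the 5, where 4.33% and 3.23% of all tested genes had such a separation upward and downward. Among all tested genes, 44.5% had a change above 0, and at an unadjusted p below 0.05 there were 1265 higher and 875 lower.

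The number of calls depended on single animals and on the scale. It was 41, 112, 162 and 408 without vehicle animals 1 to 4, and 39, 113, 114 and 33 without wild-type animals 1 to 4. No gene was called by limma on log2(TPM + 0.1), where 2016 genes had an unadjusted p below 0.05, and 33 were called on log2(TPM + 1), while DESeq2 called 491. The change of all 176 genes was above 0 in each of these fits. They were chosen by that sign in the same libraries, so this only describes them. Of the 25 genes named below with a call, 8 were called in every omission of 1 animal, Arl2, Crip2, Gfap, Ndufb7, Ntmt1, Sst, Trem2 and Zfp414. With only the 16 vehicle and wild-type libraries in the fit 76 genes were called, and 10 of the 25 kept their call. After thinning to the smallest library 14 of the 25 kept it. Apart from those 8, the 17 others kept their call in 1 (Cenps and Slc7a6) to 6 (Fth1) of the 8 omissions.

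The median log2 ratio of the genes called higher was 0.87 in vehicle and -0.11 in wild-type animals, ratios by which the genes were chosen and which therefore only describe them. The mean ratio was above 0 in vehicle and below 0 in wild-type animals for 94 of the 176, above 0 in both for 73 and below 0 in both for 9. Over all tested genes these shares were 10.6%, 36.2% and 40.3%. Tested on their own, the IP was enriched over input for 152 and depleted for 2 of them in vehicle animals, and enriched for 33 and depleted for 52 in wild-type animals. Of all tested genes, 39.7% passed that test in vehicle animals (19.1% enriched, 20.6% depleted) and 33% in wild-type animals (16.8% enriched, 16.2% depleted).

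**Figure D1:**
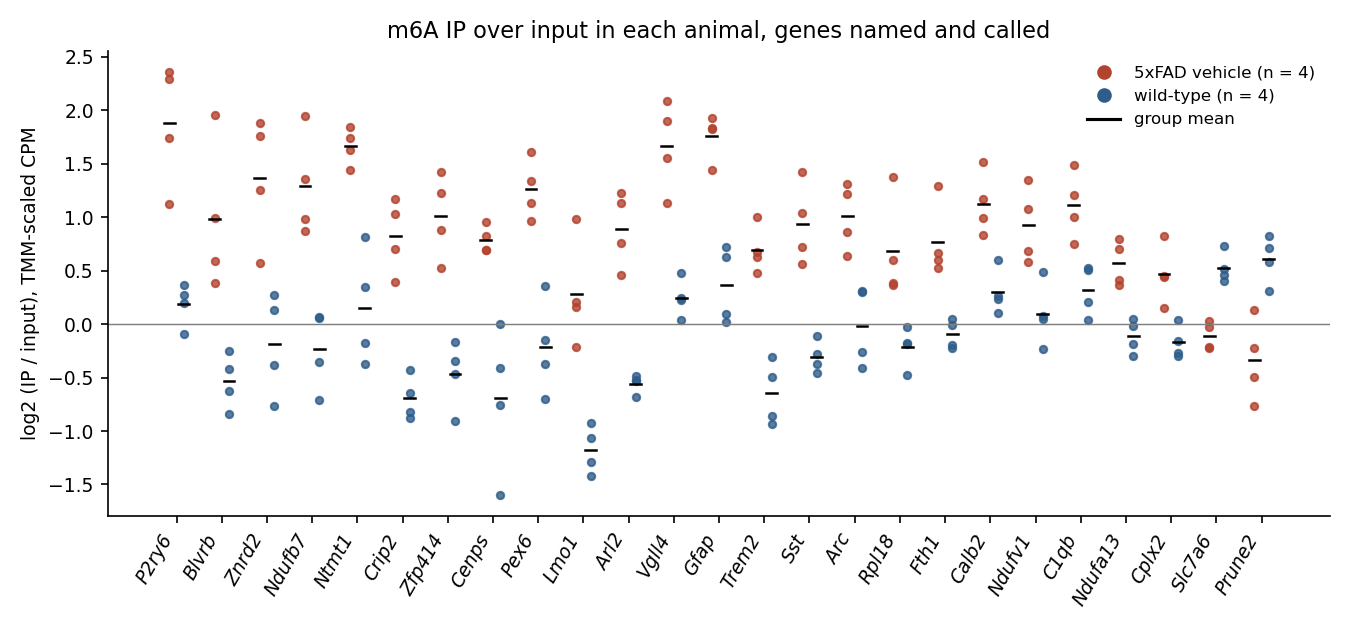
Log2 ratio of IP to input (TMM-scaled CPM, y axis) in each animal for the 25 named genes that passed the test, ordered by change. Points are animals (4 per group), 5xFAD vehicle left of wild-type for each gene, and black bars are group means. For the 2 genes on the right the vehicle animals lie below the wild-type animals.

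Among glial genes, Gfap, the intermediate filament of astrocytes and the usual marker of their reactive state, rose in both capture and amount. Its log2 ratio was 1.93, 1.83, 1.45 and 1.82 in vehicle animals 1 to 4, against 0.02, 0.63, 0.72 and 0.10 in wild-type animals. The lowest vehicle animal lay above the highest wild-type animal. The change was 1.39 on the log2 scale (SE 0.17, 2.63-fold, edgeR adjusted p = 0.0021). In the inputs Gfap was at 163, 274, 126 and 403 CPM in vehicle and 138, 80.8, 46.0 and 74.2 CPM in wild-type animals, a log2 change of 1.52 (adjusted p = 0.045). In the IP libraries it was at 620, 978, 344 and 1427 CPM in vehicle and 140, 125, 76.0 and 79.3 CPM in wild-type animals, a log2 change of 3.03. The IP thus moved by more than the input did. Gfap was the only one of 19 reactive astrocyte genes called, and 7 of the 19 had a change above 0 (list median -0.23). The summed level of the list was 331 to 598 CPM in vehicle inputs and 181 to 381 CPM in wild-type inputs.

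Trem2, the microglial lipid receptor needed for the disease-associated state, had log2 ratios of 0.67, 0.48, 0.63 and 1.01 in vehicle and -0.86, -0.94, -0.49 and -0.31 in wild-type animals. The IP held more Trem2 than the input in every vehicle animal and less in every wild-type animal. The change was 1.37 (SE 0.20, edgeR adjusted p = 0.0055), and with all libraries thinned to the size of the smallest it was 1.02 and did not pass (adjusted p = 0.141). Trem2 input levels were 12.9, 23.8, 5.00 and 22.6 CPM in vehicle, against 8.05, 5.57, 5.52 and 4.46 CPM in wild-type animals (log2 change 1.46, adjusted p = 0.068). Its IP levels were 20.6, 33.1, 7.77 and 45.6 CPM in vehicle and 4.40, 2.88, 3.91 and 3.59 CPM in wild-type animals.

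Of 30 disease-associated microglia genes, 2 rose and none fell in capture, Trem2 and Fth1, the ferritin heavy chain that stores iron. The list median was 0.00 with 15 of 30 above 0. Fth1 changed by 0.86 (SE 0.15), with ratios of 0.53 to 1.29 in vehicle and -0.22 to 0.05 in wild-type animals. In the inputs 18 of the 30 rose and none fell, where 1.06% of genes rose and 1.57% of 17693 genes were called in the inputs and 0.989% in the ratio. Its summed level was 3272 to 4994 CPM in vehicle inputs and 2396 to 2909 CPM in wild-type inputs. Cst7, a cystatin of the same state, had a fitted change of 1.84 that did not pass (adjusted p = 0.12) and rests on wild-type IP counts of 2, 7, 4 and 0. In such bulk samples more cells of a type and more RNA per cell cannot be told apart, and the part of the wider microglial rise in these ratios was not tested.

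C1qb, which encodes a chain of the complement starter C1q, was the only called gene of 20 for complement and antigen presentation, with a change of 0.80 (SE 0.17). Its ratios were 0.75 to 1.49 in vehicle and 0.04 to 0.53 in wild-type animals. The call of C1qb held in 2 of 8 omissions of an animal. The list leaned upward, with 16 of 20 above 0 and a median of 0.24. Its partner C1qa had -0.24 and C1qc 0.15, neither called. P2ry6, a UDP receptor that triggers uptake by microglia, had the largest change among the named genes with a call, at 1.75 (SE 0.38). Its counts were low, at 46 to 170 in vehicle IPs and 17 to 99 in wild-type IPs, and it was called in 2 of 8 omissions of an animal. None of the 16 homeostatic microglia genes was called (median -0.08), and none of the 15 astrocyte or 15 oligodendrocyte and myelin genes (medians -0.04 and 0.11).

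Among neuronal genes, Sst, the somatostatin peptide of a class of interneurons, rose in capture while its amount fell. Its ratios were 1.04, 0.56, 0.72 and 1.42 in vehicle and -0.37, -0.11, -0.28 and -0.46 in wild-type animals, a change of 1.24 (SE 0.17, edgeR adjusted p = 0.0048). In the inputs Sst stood at 69.3, 71.4, 91.6 and 106 CPM in vehicle and 199, 157, 131 and 112 CPM in wild-type animals (log2 change -0.81, adjusted p = 0.031). In the IP libraries it stood at 142, 105, 151 and 285 CPM in vehicle and 154, 145, 108 and 81.3 CPM in wild-type animals, which overlap (log2 change 0.51, adjusted p = 0.49). The change of the ratio thus came with a lower input. Calb2, the calretinin of another interneuron class, changed by 0.83 (SE 0.15), with ratios of 0.83 to 1.52 in vehicle and 0.11 to 0.60 in wild-type animals. These were the 2 called of 16 interneuron genes, whose median was -0.05. Gad1 and Gad2, which make GABA, had -0.18 and -0.32, and Pvalb -0.13.

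Arc, an immediate early gene whose mRNA travels into dendrites, changed by 1.04 (SE 0.23). Its ratios were 0.86, 1.22, 0.64 and 1.32 in vehicle and 0.30, 0.31, -0.41 and -0.26 in wild-type animals, without overlap. It was the only called gene of 21 immediate early genes and of 20 dendritic and local translation genes, whose medians were 0.03 and -0.01. It was called in 3 of 8 omissions of an animal. Of the 21 immediate early genes 11 were above 0, and their changes ran from -0.98 to 1.99. Cplx2, a complexin that clamps synaptic vesicle fusion, changed by 0.64 (SE 0.14) as the only called gene of 22 presynaptic genes. Its call held in 2 of 8 omissions of an animal. The other members of that list lay between -0.42 (Syn2) and 0.34 (Stx1a), with 6 of 22 above 0 and a median of -0.20. Of 20 potassium channel genes 2 were above 0 and none was called (median -0.34). None of 24 glutamate receptor or 15 hippocampal excitatory neuron genes was called, with medians of -0.16 and -0.15.

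Crip2, a LIM domain protein, had ratios of 1.03, 0.71, 0.39 and 1.17 in vehicle and -0.82, -0.43, -0.64 and -0.87 in wild-type animals, a change of 1.52 (SE 0.19, edgeR adjusted p = 0.0021). Arl2, a small GTPase of tubulin folding, had ratios of 1.13, 0.76, 0.46 and 1.22 in vehicle and -0.69, -0.48, -0.52 and -0.53 in wild-type animals, a change of 1.45 (SE 0.18, edgeR adjusted p = 0.0021). Both transcripts were thus over-represented in the IP of each vehicle animal and under-represented in that of each wild-type animal. Zfp414, a zinc finger gene, had the same pattern, with ratios of 0.52 to 1.43 in vehicle and -0.90 to -0.17 in wild-type animals and a 2.82-fold change (log2 SE 0.23). Ntmt1, which methylates protein N-termini, changed by 1.53 (SE 0.24), with ratios of 1.45 to 1.85 in vehicle and -0.37 to 0.82 in wild-type animals.

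Of the rest of the 12 largest, Blvrb (biliverdin reductase B) changed by 1.57, Znrd2 by 1.54, Cenps (a centromere and DNA repair protein) by 1.48, Pex6 (an ATPase of peroxisome import) by 1.48, Lmo1 (a LIM-only transcription cofactor) by 1.45 and Vgll4 (a TEAD cofactor) by 1.43. Their SEs were 0.28 to 0.34, and they kept their call in 1 to 4 of 8 omissions of an animal. All 6 had higher ratios in each vehicle animal than in any wild-type animal, as the rule for naming the 12 largest changes required. Their level of capture differed, with mean ratios of 0.28 in vehicle and -1.18 in wild-type animals for Lmo1, and 1.67 in vehicle and 0.25 in wild-type animals for Vgll4.

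Among mitochondrial genes, Ndufb7, an accessory subunit of complex I, had ratios of 1.36, 0.87, 0.98 and 1.94 in vehicle and -0.71, 0.06, 0.06 and -0.36 in wild-type animals, a change of 1.53 (SE 0.23, edgeR adjusted p = 0.0055). Ndufv1, which binds NADH in the same complex, changed by 0.83 (SE 0.19) and Ndufa13 by 0.68 (SE 0.14), with calls in 3 and 4 of 8 omissions. The last 2 were the called members of the list of 31 nuclear oxidative phosphorylation genes, of which 22 were above 0 (median 0.15). All 15 mitochondrially encoded genes were below 0 (median -0.51, from -0.91 for mt-Nd4l to -0.34 for mt-Rnr2), and none passed. With no low-count filter 8 of the 15 were called, of 489 genes called from a larger tested set. DESeq2 called 1 of the 15 (491 genes in all), as did the fit without vehicle animal 4 (408 in all). In the inputs 5 of the 15 rose, where 1.06% of all genes tested there did. The summed level of the 15 was 42220 to 64480 CPM in vehicle IPs and 50920 to 71680 CPM in wild-type IPs. The inputs held 125600 to 167000 CPM in vehicle and 99920 to 118000 CPM in wild-type animals. The inputs thus did not overlap between groups and the IPs did. Vehicle animal 4 held both the highest of these inputs and the lowest of these IPs. The animals' ratios were separated between groups for 1 of the 15, where 4.33% of all tested genes were separated upward and 3.23% downward. Of 53 ribosomal protein genes Rpl18 rose by 0.89 (SE 0.19) and 39 were above 0 (median 0.17). The call of Rpl18 held in 3 of 8 omissions of an animal.

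**Figure D2:**
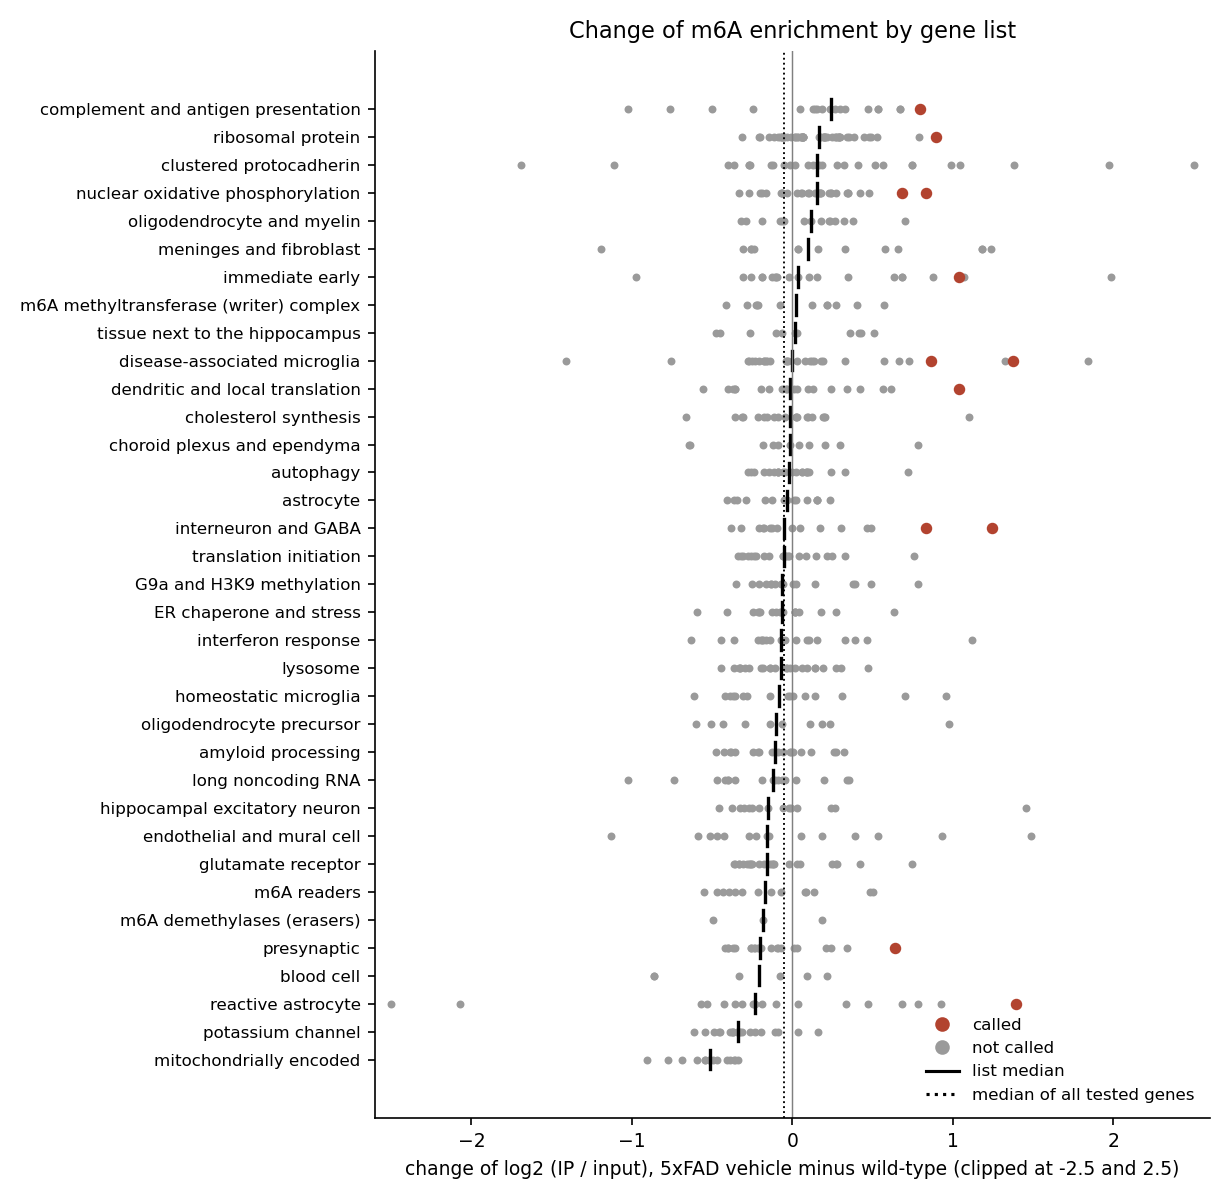
Change of log2 IP over input, 5xFAD vehicle minus wild-type (x axis, values beyond 2.5 drawn at 2.5), for the members of 35 gene lists. Red points are the called members, grey points the others, black bars the list medians and the dotted line the median of all tested genes (-0.06). Only 9 of the 35 lists hold a called member.

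Of 647 tested genes on the 35 lists 11 were called (1.7%), where 0.989% of all tested genes were. Genes that write, erase or read m6A changed in neither direction by the test. None of 12 writer complex genes was called, with a median of 0.02, and Mettl3 had -0.21 (SE 0.18) and Mettl14 0.41 (SE 0.18). None of 3 erasers or 14 readers was called. Fto, whose transcript was itself well captured, had ratios of 0.58 to 0.90 in vehicle and 0.74 to 1.64 in wild-type animals (change -0.49, SE 0.18, adjusted p = 0.28). None of 17 genes of G9a and H3K9 methylation was called, and Ehmt2, which encodes G9a, had -0.06 (SE 0.24).

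App, whose human form is one of the transgenes, had log2 ratios of -0.41, -0.39, -0.33 and -0.40 in vehicle and -0.30, -0.43, -0.62 and -0.41 in wild-type animals, which overlap, and a change of 0.06. Thy1, whose promoter drives the transgenes, was 2.29 higher in log2 input (adjusted p = 2.4e-04), at 298 to 808 CPM in vehicle and 97.0 to 116 CPM in wild-type animals. Its ratio changed by -0.28 (adjusted p = 0.53) and was called in 1 of 8 omissions, without vehicle animal 4. Counts are per gene symbol, so RNA of the Thy1 gene and any Thy1 sequence in transgene RNA cannot be told apart, in input or ratio. None of 21 amyloid processing genes was called. Apoe (0.13), Mapt (-0.21), Bdnf (-0.13), Camk2a (0.24), Alkbh5 (0.18) and Ehmt1 (-0.13) did not pass.

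The transcripts with lower capture were few. Prune2, a large neuronal gene, had ratios of 0.13, -0.23, -0.49 and -0.77 in vehicle and 0.58, 0.31, 0.83 and 0.71 in wild-type animals, a change of -0.93 (SE 0.17, edgeR adjusted p = 0.016). Its amount fell as well, to 161, 93.9, 114 and 95.5 CPM in vehicle inputs, against 196, 231, 175 and 174 CPM in wild-type inputs (log2 change -0.73). Its estimated transcript length, relative to the median gene of the same library, was 2.65, 5.17, 4.82 and 4.81 in vehicle inputs and 1.71, 1.70, 1.98 and 1.81 in wild-type inputs, so the mix of isoforms assigned to the gene differed between groups, which do not overlap. The part of that mix in the ratio was not tested. Slc7a6, an amino acid exchanger, changed by -0.63 (SE 0.14). Without 1 of the 8 animals Prune2 was called in 5 and Slc7a6 in 1 of the fits. Also called were B930095G15Rik and the pseudogene Rpl7a-ps11, for which no fold is given. With the smallest p beyond these, Atxn1l had -0.67 (adjusted p = 0.055) and Ctnnd1, the catenin p120, -0.59 (adjusted p = 0.057).

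The ratio of a gene can rise because its IP rises, its input falls or both. Of the 176 genes called higher, 167 had a higher IP and a lower input in vehicle animals, 7 had both higher and 2 both lower. The median change was 0.54 in the IP and -0.42 in the input, against 0.02 and 0.01 over all tested genes. Taken alone these changes rarely passed. The input change was called for 11 as lower and 2 as higher, and the IP change for 3 as higher and 1 as lower, and 162 were called in neither, where 1.57% of genes passed in the inputs (1.06% higher, 0.514% lower) and 0.537% of 16941 in the IPs (0.431% higher, 0.106% lower). Gfap, Trem2 and C1qb were among the 7 with both libraries higher. The ratio uses both libraries, so these values describe the calls and do not test them.

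**Figure D3:**
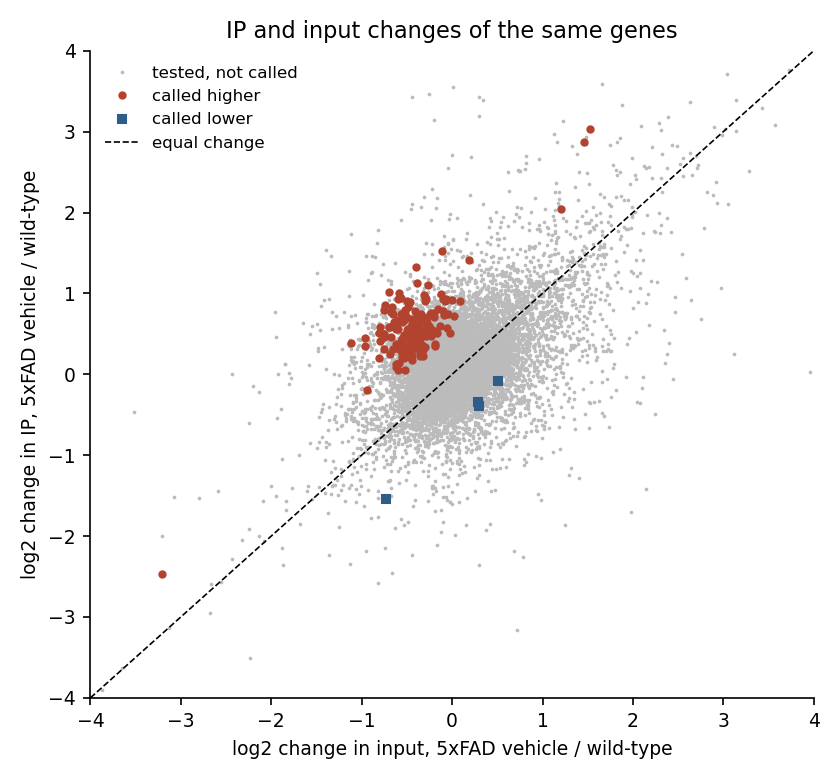
Log2 change of 5xFAD vehicle over wild-type in the input libraries (x axis) and in the IP libraries (y axis), for 16658 genes within 4 log2 units on both axes. Red points are the 176 genes called higher, blue squares 4 of the 5 called lower, grey points the genes not called, and the dashed line marks equal change. Of the red points, 167 lie where input is lower and IP higher.

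Transcript length went with the calls. The genes called higher had a median relative transcript length of 0.568, against 0.975 for all tested genes, and 138 of the 176 were shorter than the median. Genes with a mean log2 CPM of 1 or more were put in 5 bins of equal size by length, with 2576 or 2577 genes each. From shortest to longest, 85, 46, 20, 18 and 6 were called higher, which is 3.30%, 1.79%, 0.776%, 0.699% and 0.233% of the genes in each bin. The median change over all genes in the bins ran from 0.07 in the shortest to -0.20 in the longest. In the IP of vehicle animal 4 the median ratio was 0.11 in the shortest and -0.61 in the longest bin. In the other vehicle animals it was -0.20 to -0.17 and -0.12 to -0.08, and in wild-type animals -0.26 to -0.15 and -0.05 to 0.01. With the length trend removed from each library 191 genes were called, 150 of them among the 181, and without vehicle animals 3 and 4 there were 343, 154 of them among the 181. Without vehicle animal 4 alone there were 408, 179 of them among the 181, 90.9% of them higher.

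**Figure D4:**
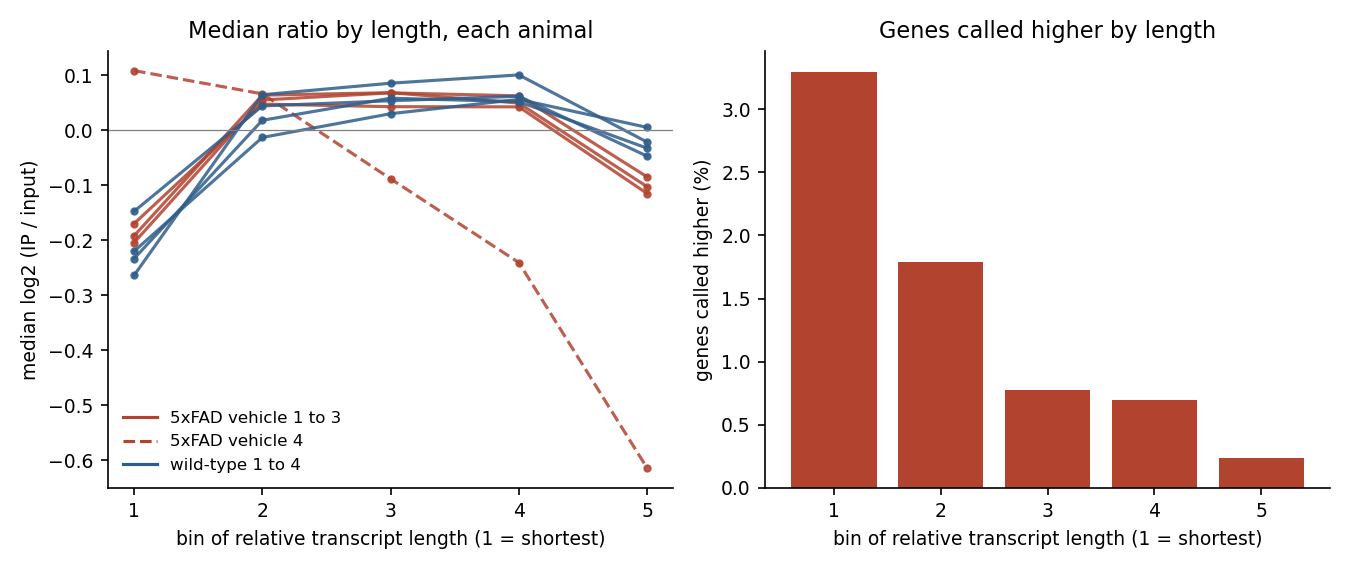
Left, median log2 ratio of IP to input (y axis) by bin of relative transcript length (x axis, 5 bins of equal size) for each animal, with vehicle animal 4 dashed. Right, percentage of genes called higher in each bin, from 3.30% in the shortest to 0.233% in the longest.

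The authors' peaks were called per animal, from the same reads, and so describe where in these genes the IP signal lay. Of 174 genes called higher with a known position, 123, 103, 101 and 137 held a peak in vehicle animals 1 to 4 (70.7%, 59.2%, 58.0% and 78.7%), against 26, 63, 40 and 20 in wild-type animals 1 to 4 (14.9%, 36.2%, 23% and 11.5%). Among all 16881 tested genes with a position the shares were 12.6% to 19.3% in vehicle and 10.3% to 16.8% in wild-type animals. The median log2 CPM was 5.04 for the genes called higher and 3.09 for all tested genes, so the 2 sets differ in level. The part of that level in the shares was not tested. Peaks in at least 3 vehicle and no wild-type animals were found in 36 of the 174 (20.7%) and in 1.18% of all. For 25 of the 174 (14.4%) no vehicle or wild-type animal held a peak, against 67.7% of all. The number of peak regions did not differ detectably, with a mean of 5310 ± 1399 per vehicle animal and 4266 ± 612 per wild-type animal (SD, n = 4 each, exact permutation test p = 0.257, smallest possible 0.0286).

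**Figure D5:**
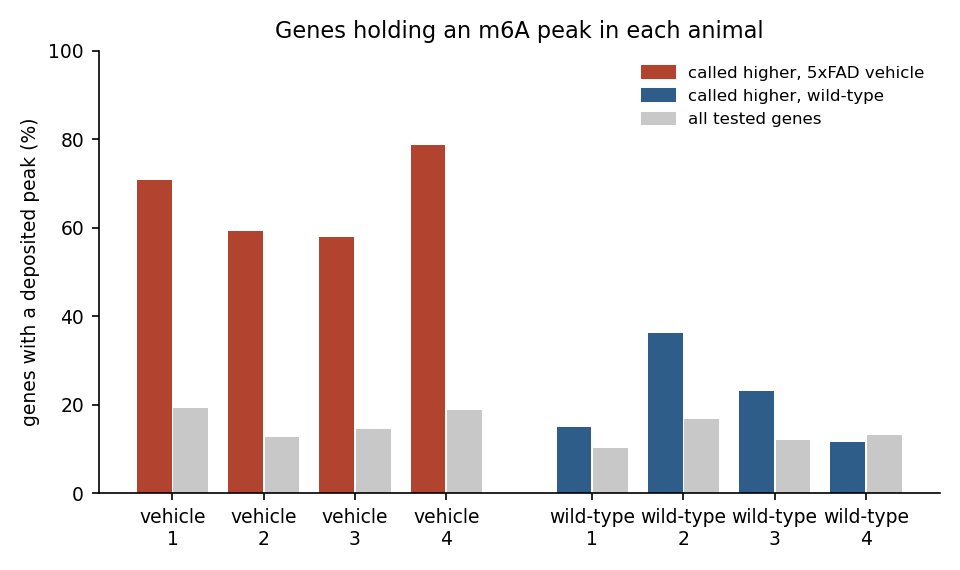
Percentage of genes with at least 1 deposited peak in each animal (y axis, x axis by animal, 5xFAD vehicle left). Coloured bars are the 174 genes called higher with a known position and grey bars all 16881 tested genes with one. The coloured bars reach 58.0% to 78.7% in vehicle and 11.5% to 36.2% in wild-type animals.

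Gfap lies on GRCm38 chromosome 11 (102887336 to 102897200, minus strand). It held 8, 7, 7 and 6 peak regions in vehicle animals and 1, 3, 2 and 1 in wild-type animals. The tallest, at chromosome 11 from 102895291 to 102895967, was 15.9% along the gene from its 5′ end, and was called in each vehicle animal with an authors' fold enrichment of 5.67 to 8.10 and in no wild-type animal. A region at the 5′ end, from 102896521 to 102897142, was called in all 8 animals, with folds of 2.63 to 3.39 in vehicle and 1.56 to 3.10 in wild-type animals. One at the 3′ end, from 102887355 to 102888883, was called in 4 vehicle and 1 wild-type animals.

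Arl2 (chromosome 19, 6134389 to 6141137) held 2 regions called in every vehicle and no wild-type animal, from 6137352 to 6137936 near its middle and from 6134388 to 6134880 at its 3′ end. Crip2 (chromosome 12, 113140236 to 113145506) held 3 such regions, the strongest from 113143893 to 113144598 with folds of 1.75 to 3.46. Zfp414 held 1 from 33631013 to 33631593 on chromosome 17, and Trem2 held 1 from 48348594 to 48348904 on the same chromosome in 3 vehicle and no wild-type animals. App, whose ratio was not called, also held peaks in 3 vehicle and no wild-type animals. It had 2, 0, 2 and 7 regions in vehicle animals 1 to 4, with folds of at most 3.93. Prune2 had the reverse pattern, with 2, 1, 0 and 0 regions in vehicle and 2, 1, 5 and 4 in wild-type animals. Its 3′ region from 17220693 to 17222567 on chromosome 19 was called in 2 vehicle and 4 wild-type animals. Many of these folds are under 4, and with that minimum Gfap held a peak in 4 vehicle and no wild-type animals and Crip2 in 1 vehicle and no wild-type animals, while Arl2, Zfp414, Trem2 and Prune2 held none in any animal of either group. Blvrb, Cenps, Lmo1, P2ry6, Pex6, Vgll4 and Slc7a6, each with a call, held no peak of any fold in any vehicle or wild-type animal. IP counts were 191 to 968 in vehicle and 44 to 151 in wild-type animals for Trem2, and 6824 to 29106 and 855 to 6572 for Gfap. A peak not called at lower counts does not show that m6A was absent, and the part of depth was not tested.

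MS1262 animals were compared with the same wild-type animals, so their values are given only beside those of vehicle animals. The median log2 ratio of the 176 genes was 0.87 in vehicle, 0.80 in MS1262 and -0.11 in wild-type animals. For Gfap the means were 1.76 ± 0.21 in vehicle, 2.09 ± 0.16 in MS1262 and 0.37 ± 0.36 in wild-type animals, for Trem2 0.70 ± 0.22, 0.61 ± 0.27 and -0.65 ± 0.30, and for Sst 0.94 ± 0.38, 0.66 ± 0.21 and -0.30 ± 0.15 (SD, n = 4 each). Gfap held 7 peak regions in each of the 4 MS1262 animals.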

How the data were processed

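Poly(A) RNA of each hippocampus was split, per the labels' protocols, into an input and a part bound with a polyclonal anti-m6A antibody, and both were made into SMART-seq libraries. The protocol used here names no fragmentation before the antibody step, so ratios are read per transcript. The authors deposited estimated counts per gene symbol and TPM (scaled for transcript length). Among the tools in the submitters' processing notes are STAR 2.7.6a, Salmon 1.4.0 and MACS2 2.1.2, and the build is GRCm38 (mm10). Per the file headers, MACS2 peaks were called per animal, IP against its own input, at a lenient q cutoff of 0.5. The deposited lists give the pileup signal, −log10 p and q values and fold enrichment of each peak; only position and fold were used here, and folds are the authors'.

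Estimated counts (22.1% of non-zero values not whole) were rounded and tested with edgeR 4.0.16 in R 4.3.3 (TMM, quasi-likelihood F test, low-count filter by group at 10). All 24 libraries entered, with the animal as a block, the interaction of IP with group, and 9 residual degrees of freedom. Input and IP were also fitted apart. Tests were 2-sided, with Benjamini-Hochberg adjustment over all tested genes. Log2 ratios per animal are log2 CPM (prior count 2) of IP minus input. Relative transcript length is estimated count over TPM, divided by the library's median. Positions come from RefSeq genes of GRCm38.p6. Alternatives used limma 3.58.1 and DESeq2 1.42.0, and the steps were tested on simulated data.

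Named genes were 15 always considered, up to 12 of the largest changes each way among called genes whose groups do not overlap and whose log2 CPM averages 1 or more (smallest p up to 5 where fewer than 5 passed), and up to 4 called members per list, passing over predicted genes and pseudogenes; 1 gene that met the rule is not reported here. Members, lists and tests were chosen with earlier results of these data known. Input and IP of an animal share its name in the labels, and each of the 12 IPs correlated best with its own input, so the animal block rests on true pairs. The animals are separate mice per the labels, with no batch given. The labels mention no molecular identifiers, and amplified copies of a molecule cannot be told from separate ones.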

Additional observations from a re-analysis of the deposited data

Results flagged for a closer look

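For 8 named genes with a call the ratio was above 0 in each vehicle and below 0 in each wild-type animal. The log2 changes were 1.45 for Arl2, 1.57 for Blvrb, 1.48 for Cenps, 1.52 for Crip2, 0.89 for Rpl18, 1.24 for Sst, 1.37 for Trem2 and 1.495 for Zfp414. For Cenps in wild-type animal 2 and Rpl18 in wild-type animal 1 the ratio was barely below 0, at -0.0020 and -0.030. The call was a condition of this flag. For Arl2, Blvrb, Cenps, Crip2 and Zfp414 ratios without overlap were also a condition of being named. Of all tested genes, 4.33% had ratios separated between groups with vehicle higher and 3.23% with wild-type higher. The share on opposite sides of 0 was not counted.

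Of 96 groups of 4 animals checked for an animal far from the others, 10 held one, where chance gives about 1 in 20. Vehicle animal 4 stood off for the ratio of Bdnf (-1.32, others -0.58 to -0.44) and of Camk2a (1.46, others 0.59 to 0.71). It also stood off for the share of IP counts in mitochondrially encoded genes (4.22%, others 6.18% to 6.45%) and for the slope of the ratio on length (-0.15 per doubling, others 0.06 to 0.08). Its IP was the smallest library. Wild-type animal 4 stood off for Camk2a (0.31, others 0.69 to 0.75) and wild-type animal 1 for the mitochondrial share (7.17%, others 5.09% to 5.35%). Ttr reached 7032 CPM in the input and 5728 CPM in the IP of vehicle animal 3 (others 57.1 to 68.2 and 33.5 to 141.8). It reached 730.3 CPM in the input and 597.9 CPM in the IP of wild-type animal 3 (others 31.7 to 60.2 and 27.2 to 53.7). The summed choroid plexus and ependyma list was at 21450 CPM in the input of vehicle animal 3. Its part in the results was not tested beyond the fits without that animal.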

How the results depend on the processing

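The 176 genes called higher stayed above 0 in each alternative run in which they were tested. They were chosen by that sign in these same libraries, so the shared sign describes them and does not test them. The counts called in all, higher, lower and at least 2-fold moved to 491, 439, 52 and 129 with DESeq2, and to 489, 435, 54 and 181 with no low-count filter. They moved to 33, 33, 0 and 25 with limma on log2(TPM + 1), and to 0 for each on log2(TPM + 0.1), where 2016 genes had an unadjusted p below 0.05. Requiring log2 CPM to average 1 or more gave 291 called and 286 higher, and only the 16 vehicle and wild-type libraries gave 76, 75 and 1. In that fit 10 of the 25 named genes kept their call, and Arc, Blvrb, C1qb, Calb2, Cenps, Cplx2, Fth1, Lmo1, Ndufa13, Ndufv1, P2ry6, Prune2, Rpl18, Slc7a6 and Znrd2 did not. After thinning to the smallest library 14 kept it, and Arc, Blvrb, C1qb, Cenps, Lmo1, P2ry6, Pex6, Slc7a6, Trem2, Vgll4 and Znrd2 did not. On log2(TPM + 1) 5 kept it, Arl2, Crip2, Gfap, Sst and Trem2. Thinning to the smallest library gave 1 lower, and removing the length trend, chosen after seeing the data, gave 3 lower. Without vehicle animals 3 and 4 together, also chosen after seeing the data, the counts were 343, 330, 13 and 101. Leaving out each animal gave 33 to 408 called, 33 to 371 higher, 0 to 37 lower and 24 to 88 at least 2-fold. Size factors of DESeq2, scaling within each fraction and robust estimation gave 195, 204 and 187 called, each within 1.5 times.

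With no replicate block, so that input and IP of an animal were not paired, the counts were 0 for each, with 1077 genes at an unadjusted p below 0.05. With a replicate block by label number across groups they were 97, 95 and 2; the numbers do not pair animals across groups, with correlations of same-numbered deviations of -0.07 to 0.03.

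Named genes without a call changed sign as follows. Ehmt2 was at 0.0030 with the stricter filter and 0.024 with no replicate block, and reached 0.11 without an animal (range -0.33 to 0.11). On the log2(TPM + 1) and log2(TPM + 0.1) scales, where the median of all genes was 0.07 and 0.09 against -0.06, Bdnf was at 0.0058 and 0.0031, Ehmt1 at 0.035 and 0.028, and Thy1 at 0.066 and 0.065. Ehmt1 was at 0.13 after thinning. Leaving out each animal gave -0.054 to 0.24 for Apoe, -0.21 to 0.053 for Bdnf and -0.0043 to 0.10 for App; without vehicle animals 3 and 4, Apoe was at -0.051 and Bdnf at 0.091. The vehicle minus wild-type difference in mitochondrial share of the IP was 0.083 percentage points and ran from -0.14 to 0.60 without an animal. The slope on length differed by -0.084 (exact permutation p = 0.0571) and by -0.11 to -0.028 without an animal, with p = 0.0286, the smallest that test can give, without vehicle animal 2. The SD of the ratio over genes and the number of peak regions kept their sign, at 0.0077 to 0.17 and 618 to 1550. Depth is limited most by the IP of vehicle animal 4, at 3.98 M counts (megacounts).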

Other observations

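Families grouped by symbol after the values were seen, with no test, held further genes with higher capture in vehicle than in wild-type animals, where 0.962% of all tested genes were called higher. Of 49 complex I subunit genes 6 were called, Ndufa13, Ndufb11, Ndufb7, Ndufs5, Ndufs7 and Ndufv1, and 37 were above 0. Of 83 genes of the mitochondrial ribosome 8 were called, Mrpl14, Mrpl2, Mrpl28, Mrpl36, Mrpl4, Mrpl53, Mrps12 and Mrps7, but 45 were above 0 and the median was 0.02. Of 6 complexin and synuclein genes 3 were called, Cplx2, Cplx3 and Sncb, with a median of 0.44. Chga and Chgb, which encode chromogranins of dense core vesicles, were 2 of 6 granin and secretory peptide genes, with a median of -0.01. Of 5 prefoldin genes, which hand tubulin and actin to the chaperonin, Pfdn1 and Pfdn6 were called. Of 24 mitochondrial import genes (Timm and Tomm) Timm10b and Timm23 were called, of 28 RNA polymerase subunit genes Polr2f and Polr3e, and of 9 spliceosomal Sf3 genes Sf3b5.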
